A study of Mus musculus with 38 samples.

Results

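Benign hyperplastic lesions (BHL) were compared with asymptomatic thyroids (AT) among mice that expressed the oncogene BRAFV600E in the gland. All 4 BHL BRAF(+) and all 5 AT BRAF(+) samples were taken by their labels, 9 of the 38 mice of the series, with 1 array per mouse. These 9 mice carried a human BRAFV600E cDNA under the bovine thyroglobulin promoter, which is active in thyroid follicular cells, on the FVB/N background. BRAF(+) means that BRAFV600E RNA was found in the thyroid. An asymptomatic thyroid had no visible histological change. The BHL BRAF(+) mice were 3 females (M_942 and M_943 at 11 months, M_997 at 10 months) and 1 male (M_958 at 4 months), all of transgenic line tg3. The AT BRAF(+) mice were 4 females (M_1003 at 10 months, M_779 at 7 months, M_945 and M_948 at 11 months) and 1 male (M_523 at 10 months), of line tg3 except M_779 of line tg2. The 4 BHL and 5 AT mice without BRAFV600E RNA, BRAF(-), 4 to 24 months old, served to measure the same lesion difference without the oncogene. By the paper they came from lines tg1, tg2 and tg3 and were genotyped as non-transgenic, except the tg1 mouse of BHL, which was transgenic. M_701 of BHL and M_524 and M_771 of AT were male and the other BRAF(-) mice female. Values are log2 signals after RMA normalization, and a log2 difference of 1 is a 2-fold difference. RNA and histology came from different pieces of the same gland, so that the piece measured was not the piece read.

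The thyroid follicle is lined by cells that take up iodide, couple it to thyroglobulin and release thyroid hormone, and parafollicular C cells lie between the follicles. BRAFV600E is a kinase that signals through MEK and ERK without an upstream signal, and in thyroid cells this cascade is known for lowering the genes of iodide handling. *Tg*, which encodes thyroglobulin, lay at 13.52 to 13.71 in all 9 mice, so the tissue carried its defining transcript in both groups. The 9 arrays had medians of 6.03 to 6.15 and correlated with each other at 0.962 to 0.988. M_958 stood apart: its Euclidean distance in log2 signal over the probe sets tested was 60.1 to 64.2 from the other BHL BRAF(+) mice, which were 40.6 to 46.5 from each other, and 53.4 to 68.5 from the AT BRAF(+) mice. It is the only male among the BHL BRAF(+) mice and the only mouse under 7 months among the 9, so that age, sex and this mouse cannot be told apart within BHL BRAF(+).

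Of 4388 probe sets that varied enough over the 38 mice to be tested, 275 (6.27%) differed between BHL BRAF(+) and AT BRAF(+) at an adjusted p under 0.05 in limma, 150 higher (3.42%) and 125 lower (2.85%) in BHL, and 1235 (28.1%) did so at an unadjusted p under 0.05. Between BHL and AT of BRAF(-) mice 0 probe sets were called, and 123 (2.8%) had an unadjusted p under 0.05. Mean skeletal muscle marker signal was 5.56 to 10.39 in BHL BRAF(-) and 5.38 to 10.39 in AT BRAF(-). In BRAF(+) mice it was at most 5.62 in BHL and 5.43 in AT. The mean of the 2 parathyroid markers measured reached 11.9 in BHL BRAF(-) and 11.29 in AT BRAF(-). It reached 4.93 in BHL BRAF(+) and 5.82 in AT BRAF(+). A fit with muscle and white fat scores is given below, and the part of parathyroid signal was not tested. The lesion difference itself was larger or smaller in BRAF(+) than in BRAF(-) mice for 26 probe sets (0.593%), each also among the 275. With each array centred on its own median, which moved all differences by -0.041, there were 283 calls, and the share called higher was 43.8% (124 higher, 159 lower) in place of 54.5%. The number of calls rested on single mice. It was 35, 36 and 37 without M_942, M_943 or M_997, 50 without M_523, 81 without M_945, 176 without M_779, 469 without M_1003 and 553 without M_958. All 275 probe sets kept their direction in every one of these fits. They were selected on the same mice, so this is no independent evidence. The genes described first are those whose call did not depend on any mouse.

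**Figure D1:**
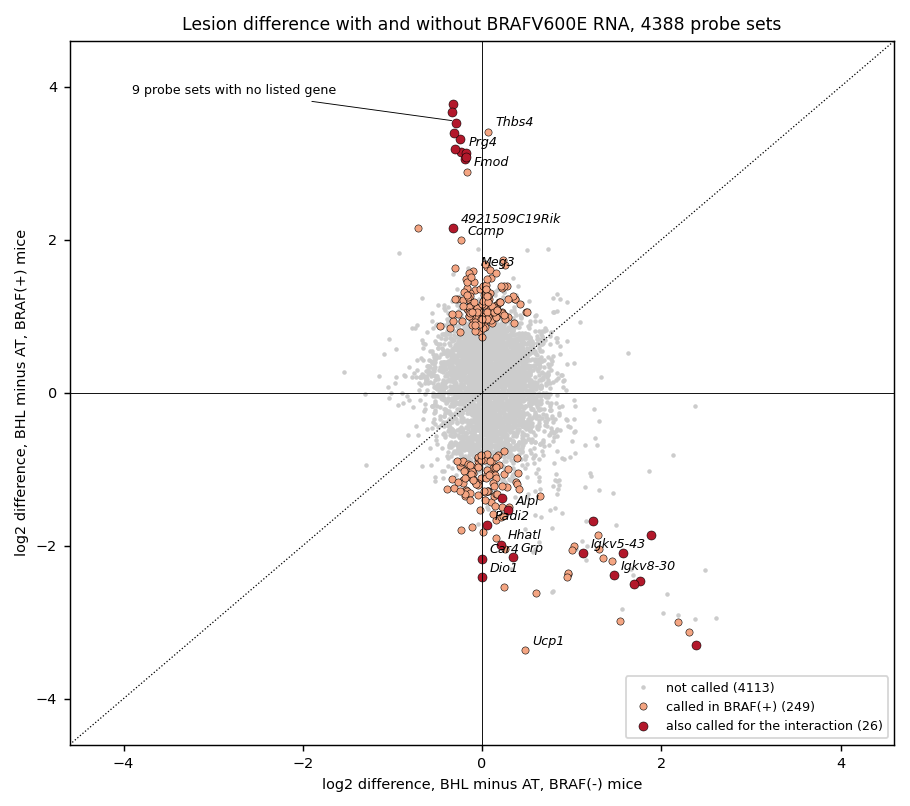
Log2 difference between BHL and AT in BRAF(-) mice (horizontal axis) and in BRAF(+) mice (vertical axis), 1 point for each of the 4388 probe sets; the dotted line marks equal differences. The called probe sets spread along the vertical axis, and those at the lower right, lower in BRAF(+) and higher in BRAF(-) lesions, include the immunoglobulin genes.

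The 11 largest increases among the probe sets called were those of *Thbs4*, *Prg4* and 9 probe sets with neighbouring numbers (10513455 is one), for which the annotation used here lists no gene. The 9 were singled out after their values were seen. Their median signal was 7.31, 7.01, 7.98 and 7.52 in BHL M_942, M_943, M_958 and M_997, the order used from here on, and 5.17, 3.53, 3.92, 4.22 and 3.65 in AT M_1003, M_523, M_779, M_945 and M_948. Each of the 9 was higher in all 4 BHL mice than in any AT mouse, by 3.05 to 3.77 on the log2 scale, with an adjusted p of at most 2.89e-06 in limma. The BRAF(-) groups had means of 3.42 to 4.52, their lesion difference was -0.34 to -0.18, and the interaction had an adjusted p of at most 0.00029. Medians were 4.42 to 5.68 in the 10 borderline lesions and 5.72 to 7.2 in the 10 papillary carcinomas of the series. The difference in BRAF(+) mice stayed called for all 9 under each of 26 other settings. The interaction stayed called for all 9 in 24 of the 25 settings that have one, and lost its call when all 38 mice were fitted together (adjusted p = 0.1 to 0.112). M_958 was the highest BHL mouse and M_1003 the highest AT mouse for each of the 9, which are therefore not counted as independent observations, and whether they share sequence was not tested.

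*Prg4* (probe set 10358476) encodes lubricin, the secreted proteoglycan that lubricates joints and tendon sheaths. Its signal was 7.99, 9.03, 8.07 and 8.1 in BHL and 5.41, 5.07, 4.67, 5.31 and 5.36 in AT. Every BHL BRAF(+) mouse lay above every AT BRAF(+) mouse, and the log2 difference was 3.15 (SE 0.44, adjusted p = 0.000297 in limma). In BRAF(-) mice the difference was -0.23, and the interaction was 3.38 (adjusted p = 0.0114). *4921509C19Rik* (10488553) was at 7.18, 7.89, 6.4 and 6.66 in BHL and at 5.12, 4.64, 4.17, 5.26 and 5.29 in AT. It rose by 2.15 (SE 0.31, adjusted p = 0.000323 in limma), likewise without overlap, and its interaction was 2.47 (adjusted p = 0.00696). Over the kept probe sets, 271 (6.18%) had all 4 BHL mice above all 5 AT mice and 109 (2.48%) had them all below. The difference in BRAF(+) mice stayed called for both genes under each of the 26 other settings. The interaction stayed called in 19 of 25 for *Prg4* and 23 of 25 for *4921509C19Rik*, and with all 38 mice in 1 fit its adjusted p was 0.1 and 0.104.

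Further genes of tendon and cartilage matrix were high in the 3 older BHL females alone. *Thbs4* (10411082), thrombospondin 4, was at 10.2, 10.81, 5.81 and 10.19 in BHL and at 6.09, 5.75, 5.55, 6.16 and 5.89 in AT. *Fmod* (10349947), fibromodulin, a small proteoglycan that binds collagen fibrils, was at 10.09, 10.51, 5.74 and 10.54 in BHL and at 7.61, 5.54, 5.87, 6.19 and 6.84 in AT. *Comp* (10572378), cartilage oligomeric matrix protein, was at 8.18, 8.56, 5.26 and 8.26 in BHL and at 6.06, 5.7, 5.9, 5.33 and 5.04 in AT. In each of the 3 genes M_958 lay within the range of the AT mice, while the other BHL mice lay above it. The log2 differences, adjusted for sex, were 3.41 for *Thbs4* (SE 0.62, adjusted p = 0.00543 in limma), 2.89 for *Fmod* (SE 0.54, adjusted p = 0.00576) and 1.99 for *Comp* (SE 0.43, adjusted p = 0.0174). Without M_958 they were 4.51, 3.82 and 2.74. *Comp* was no longer called in 6 of 26 settings, among them the fits without M_942, M_943 or M_997. The interaction did not pass the threshold for any of the 3 (adjusted p = 0.0948, 0.0708 and 0.124).

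The gene lists are read against all 1570 named genes tested, of which 99 (6.31%) were called higher and 98 (6.24%) lower. Of the cartilage and tendon list, 4 of 12 measured members were tested and 2 were called higher, *Comp* and *Col9a1*, a chain of cartilage collagen IX that rose by 1 (SE 0.24, adjusted p = 0.0258 in limma). *Col2a1* and *Acan*, the main collagen and proteoglycan of cartilage, had log2 differences of -0.12 and -0.05 and were too flat to be tested. The median of the list was 0.01, or -0.03 with centred arrays, against -0.01 over all measured genes. Of the extracellular matrix list, 3 of 10 tested members were higher and 0 lower, with a median of 0.37 over 18 measured members, 15 of them above 0. These were *Thbs2*, thrombospondin 2, at 1.3 (SE 0.34, adjusted p = 0.0326), *Fn1*, fibronectin, at 1.06 (SE 0.28, adjusted p = 0.0344), and *Col12a1*, a fibril-associated collagen, at 1.05 (SE 0.27, adjusted p = 0.0326). *Tgfbi*, a TGF-beta-induced adhesion protein, rose by 1.29 (SE 0.29, adjusted p = 0.0202), *Ltbp2*, a fibrillin-binding protein of elastic matrix, by 1.5 (SE 0.37, adjusted p = 0.0262), and *Timp1*, an inhibitor of matrix metalloproteases, by 1.4 (SE 0.4, adjusted p = 0.0425). M_958 was the lowest BHL mouse for all 6 genes, and each of them overlapped between the groups. Fibroblast markers (*Pdgfra*, *Col1a1* and *Dpt*, all measured) had a mean signal of 8.55 to 9.91 in BHL and 8.51 to 9.52 in AT, none of the 3 was called, and their part in the matrix genes was not tested. *Fn1* was called in 11 of the 26 other settings, *Thbs2* in 13, *Col12a1* in 12, *Tgfbi* in 16, *Ltbp2* in 13 and *Timp1* in 7.

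**Figure D2:**
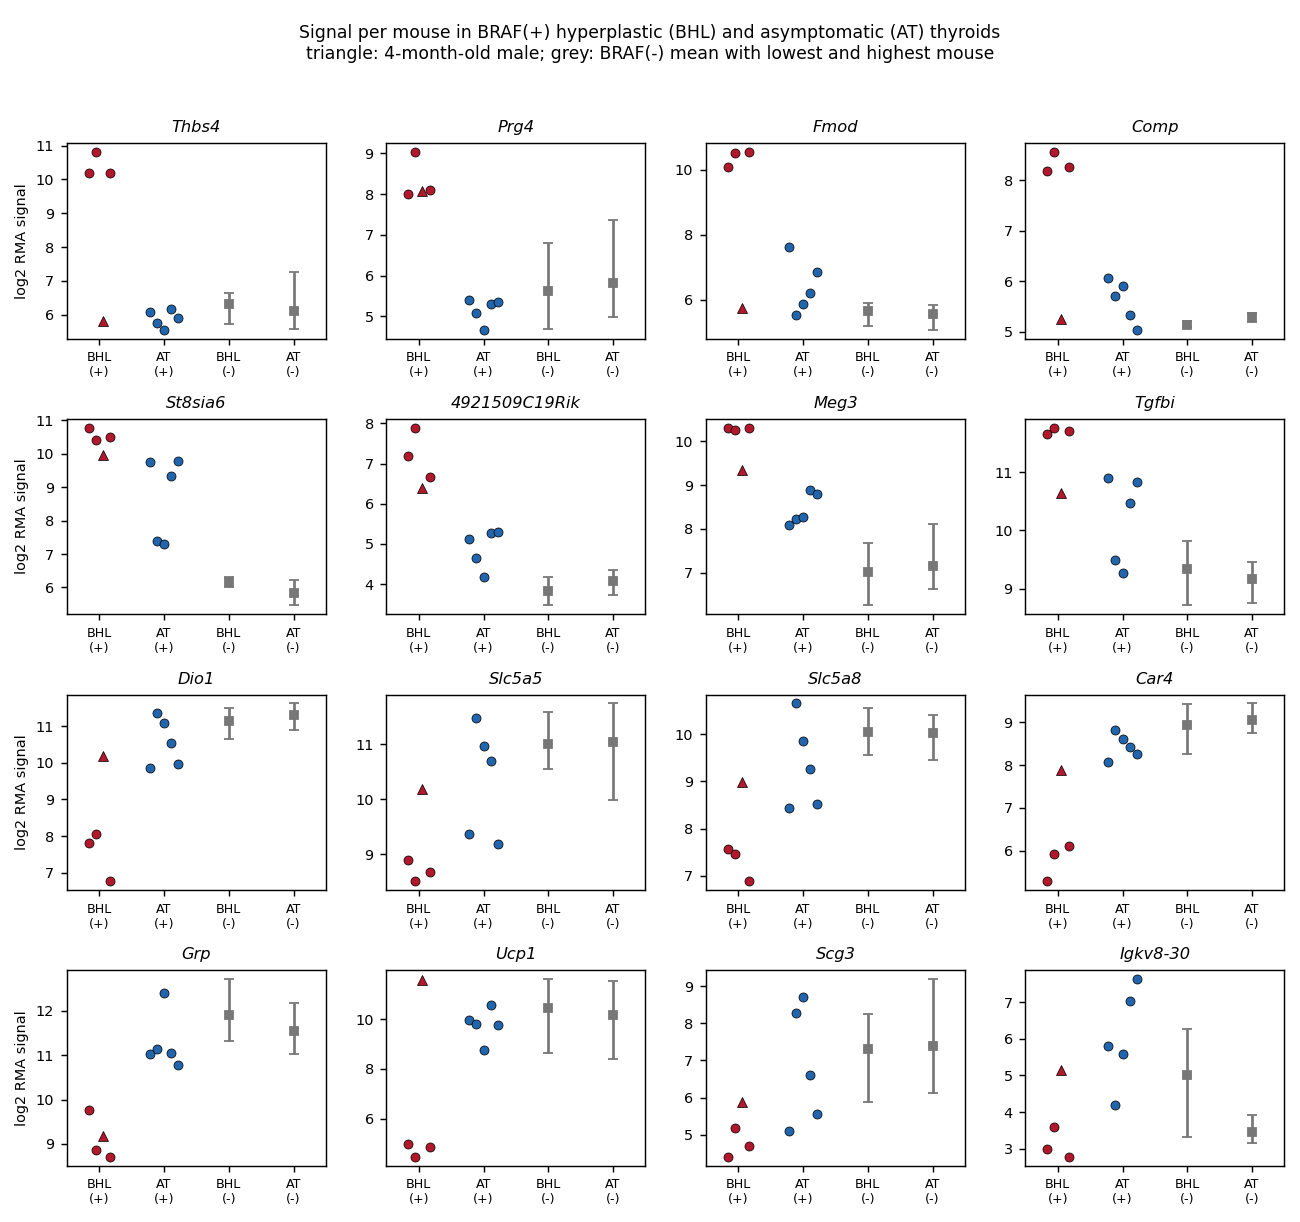
Log2 RMA signal of 16 genes, 1 point per BRAF(+) mouse (red: 4 BHL; blue: 5 AT; triangle: mouse M_958), with the mean, lowest and highest mouse of the 4 BHL and 5 AT BRAF(-) mice in grey. *Prg4*, *Meg3* and *4921509C19Rik* separate the BRAF(+) groups, whereas M_958 joins the AT mice for *Thbs4*, *Fmod* and *Comp* and lies above them for *Ucp1*.

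To show the start of genes at either end of the comparison, the 250 bases before the start of *Fmod*, *Dio1* and *Meg3* are given from RefSeq (build GRCm38.p6), 5′ to 3′, with matches in capitals. The motifs searched on both strands were TGANTCA (AP-1), CTCAAG (NKX2-1, a thyroid lineage factor) and TGACGTCA (the cAMP response element bound by CREB).
Fmod, chr1:134037004-134037253 (+ strand): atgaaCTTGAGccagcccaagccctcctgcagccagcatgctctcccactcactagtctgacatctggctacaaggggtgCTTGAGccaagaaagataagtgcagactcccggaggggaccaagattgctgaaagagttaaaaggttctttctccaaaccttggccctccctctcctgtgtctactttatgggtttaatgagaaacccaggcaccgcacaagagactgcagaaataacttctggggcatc
Dio1, chr4:107307169-107307418 (- strand): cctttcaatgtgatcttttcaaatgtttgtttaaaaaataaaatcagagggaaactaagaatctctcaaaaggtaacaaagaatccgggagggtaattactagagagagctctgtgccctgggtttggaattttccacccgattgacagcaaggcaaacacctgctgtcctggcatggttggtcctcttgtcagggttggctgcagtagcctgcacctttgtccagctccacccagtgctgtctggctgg
Meg3, chr12:109540746-109540995 (+ strand): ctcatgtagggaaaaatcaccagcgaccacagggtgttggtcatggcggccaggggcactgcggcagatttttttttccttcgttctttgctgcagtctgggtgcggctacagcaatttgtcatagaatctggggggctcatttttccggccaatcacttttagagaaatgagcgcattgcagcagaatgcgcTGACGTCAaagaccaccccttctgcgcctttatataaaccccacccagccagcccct
*Fmod* held 2 matches to CTCAAG, both on the opposite strand, starting 245 and 170 bases before the start, and *Meg3* held 1 match to TGACGTCA, 57 bases before it. A gene counted as holding a motif if any of its windows did. CTCAAG occurred in 15.6% of the 1120 genes tested that have a window. It occurred in 14.1% of the called higher and 8.22% of the called lower genes with a window (10 of 71 and 6 of 73). TGANTCA occurred in 8.12% of the genes tested, 5.63% of the higher and 4.11% of the lower genes, and TGACGTCA in 2.5%, 1.41% and 2.74%. Counted per window and not per gene, the shares over all 32841 windows were 13.3% for CTCAAG, 6.75% for TGANTCA and 1.55% for TGACGTCA. A match is a description of the letters and not evidence that a factor binds.

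Several genes with low signals in both BRAF(-) groups were higher in BHL BRAF(+) than in AT BRAF(+). *St8sia6*, a sialyltransferase, was at 10.78, 10.42, 9.97 and 10.5 in BHL and at 9.76, 7.4, 7.31, 9.35 and 9.77 in AT, with means of 6.16 and 5.84 in the BRAF(-) groups. M_523 and M_779 were the low AT mice. *Tacr3*, the neurokinin B receptor, was at 8.55, 8.05, 7.87 and 8.34 in BHL and at 7.67, 5.63, 4.42, 7.35 and 7.63 in AT, again with M_523 and M_779 far below the other AT mice. The differences were 1.73 (SE 0.41, adjusted p = 0.0246 in limma) and 1.68 (SE 0.48, adjusted p = 0.0444). *Sptlc3*, a subunit of serine palmitoyltransferase, *Slc26a9*, an anion transporter, *Atp13a4*, a P-type ATPase, and *Elapor2* had differences of 1.67, 1.64, 1.63 and 1.6 (SE 0.45, 0.35, 0.39 and 0.41; adjusted p = 0.0351, 0.0161, 0.0246 and 0.0313). M_523 and M_779 were the lowest AT mice for these 4 genes too. *Nrk*, a kinase, rose by 1.51 (adjusted p = 0.027). *Aqp1*, a water channel, rose by 1.57 (adjusted p = 0.0206), but unlike the others it was not low in the BRAF(-) groups, with means of 8.64 and 8.46. Without both of these mice the calls over all probe sets numbered 63, and the difference was 0.86 for *St8sia6* and 0.7 for *Tacr3* (adjusted p = 0.106 and 0.188 in limma).

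*Braf* itself (probe set 10544219, on which the human transgene and the mouse gene cannot be told apart) was at 10.08, 10.07, 9.61 and 9.95 in BHL and at 9.28, 9.24, 9.49, 9.33 and 9.57 in AT. All BHL mice were above all AT mice, and the difference of means was 0.54 (9.93 ± 0.22, SD, n = 4 against 9.38 ± 0.14, SD, n = 5). The two-sided exact permutation test gave p = 0.00794, the smallest that divisions of 9 mice into 4 and 5 allow. The separation was narrow, with M_958 at 9.61 and M_948 at 9.57. With each array centred on its own median, the difference was 0.5 and the same test gave p = 0.0159. M_523 and M_779, low for the genes above, were the lowest and the second highest AT mouse for *Braf*.

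Of the MAPK output list, genes that ERK signalling raises, 2 of 10 tested members were called higher (6.31% of all named genes) and 0 lower, and the log2 difference was above 0 for all 19 measured members, with a median of 0.55 against -0.01 over all measured genes. *Spry1*, at 0.02, fell below 0 when arrays were centred, and 18 members remained above. *Etv1*, an ETS transcription factor, was at 9.7, 9.56, 9.02 and 9.51 in BHL and at 9.12, 7.52, 7.98, 8.58 and 8.93 in AT, a difference of 1.04 (SE 0.27, adjusted p = 0.0326 in limma). *Spred1*, an inhibitor of RAS signalling, rose by 0.96 (SE 0.25, adjusted p = 0.0326). *Ccnd1*, *Etv5*, *Egr1*, *Etv4* and *Dusp6*, in that order, had differences of 0.94, 0.82, 0.75, 0.73 and 0.4 and did not pass the threshold. The list was chosen with earlier results of these mice known, and *Etv1* was called in 12 of the 26 other settings. Of the 18 genes the study had selected on these samples, which are no independent evidence, 15 were tested. *Fn1* and *Rasa1*, a RAS GTPase-activating protein (0.89, SE 0.26, adjusted p = 0.0427, called in 8 of the 26 other settings), were higher and *Dio1* was lower. Among surfactant and alveolar type II genes 0 of 7 tested members were called, and *Sftpb*, surfactant protein B, was at 12.89, 12.7, 12.54 and 12.82 in BHL and at 12.42, 10.91, 10.19, 12.22 and 12.3 in AT (1.14, SE 0.36, adjusted p = 0.0568).

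**Figure D3:**
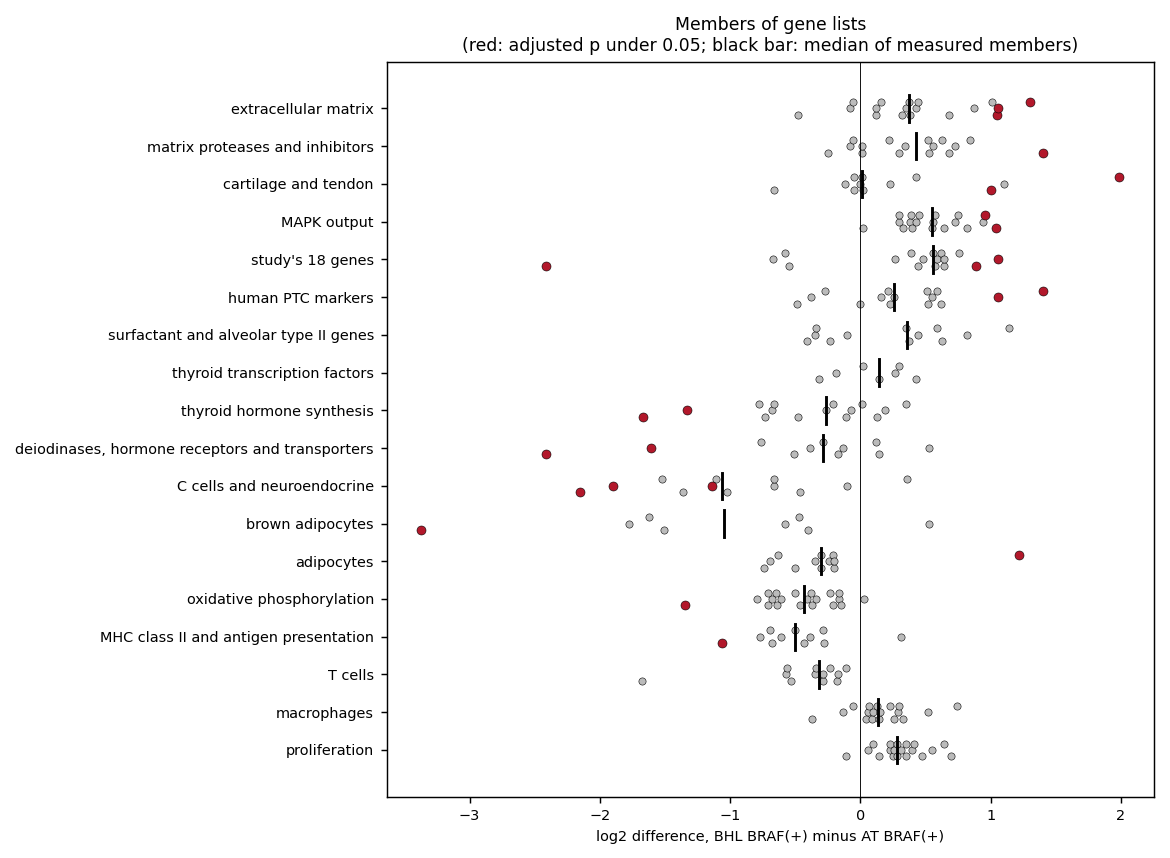
Log2 difference between BHL BRAF(+) and AT BRAF(+) for each measured member of 18 gene lists (points), with the median of each list (bar) and members called in red. All MAPK output genes lie above 0 (*Spry1* falls below it with centred arrays), and C cell and brown adipocyte genes have medians of -1.07 and -1.04.

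*Meg3*, *Rian*, *DQ267102* and 3 of 9 tested microRNA genes of the imprinted region between *Dlk1* and *Dio3* on chromosome 12 were higher in the lesions. In this region *Dlk1* is expressed from the paternal copy, and *Meg3*, *Rian* and a series of microRNAs are expressed from the maternal copy, many of them as one long transcript. The region was picked after the values of *Meg3* were seen. RefSeq places 103 genes between the 2 ends, of which 48 had a named probe set and 13 were tested. All 13 log2 differences were above 0, with a median of 0.87 against 0.19 over all probe sets kept. Of these, 6 were called higher and 0 lower, where 6.31% of all named genes tested were called higher. Each of the 13 had a lower mean in both BRAF(-) groups than in BHL BRAF(+), a variation that helps a gene pass the filter. The shared direction is therefore a description and not support. The interaction passed the threshold for none of the 13 (adjusted p = 0.15 for *Meg3* in limma). *Meg3* (10398326) was at 10.31, 10.26, 9.34 and 10.3 in BHL and at 8.08, 8.22, 8.27, 8.89 and 8.8 in AT, without overlap, a difference of 1.59 (SE 0.36, adjusted p = 0.0205 in limma). The BRAF(-) groups had means of 7.02 and 7.16. *DQ267102* and *Rian* rose by 1.26 and 1.16 (adjusted p = 0.0326 for both), and the microRNA genes *Mir377*, *Mir380* and *Mir323* by 1.12, 0.95 and 0.87 (adjusted p = 0.0344, 0.0278 and 0.049). *Dlk1*, which encodes a membrane protein of preadipocytes and endocrine tissue, was at 11.54, 10.91, 9.47 and 10.82 in BHL and at 10.1, 8.01, 9.28, 10.25 and 10.37 in AT, and its difference of 1.12 did not pass the threshold (adjusted p = 0.061). The other 6 microRNA genes tested had differences of 0.42 to 0.7 and did not pass.

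The mature products of the 3 microRNA genes called are given below from RefSeq (build GRCm38.p6), 5′ to 3′, with the seed, bases 2 to 8, in capitals, because the seed sets which targets a microRNA can pair with. The array measured the precursor transcripts and not these mature strands.
mmu-miR-380-5p: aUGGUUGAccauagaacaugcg
mmu-miR-380-3p: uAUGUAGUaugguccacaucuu
mmu-miR-323-5p: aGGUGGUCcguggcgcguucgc
mmu-miR-323-3p: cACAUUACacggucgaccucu
mmu-miR-377-5p: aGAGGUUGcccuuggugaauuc
mmu-miR-377-3p: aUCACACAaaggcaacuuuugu
No seed was shared among the 6 strands. Signals of the 3 precursors were low. *Mir377* was at 6.16, 4.96, 4.66 and 5.35 in BHL and at 4.04, 4.19, 4.24, 4.2 and 4.08 in AT, and the 4 BHL mice were above the 5 AT mice for *Mir377* and *Mir380* but not for *Mir323*. The number of called probe sets in the region was 0 to 9 over the settings tried, and 0 in the fits without M_942, M_943, M_997 or M_523.

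**Figure D4:**
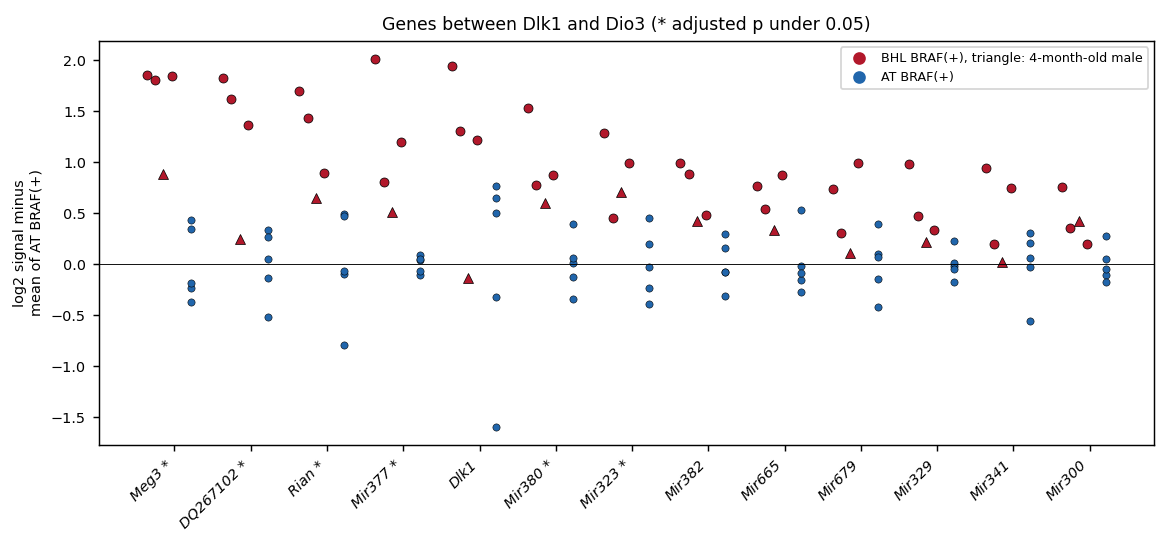
Log2 signal of the 13 tested genes between *Dlk1* and *Dio3*, each minus its mean over the 5 AT BRAF(+) mice (red: BHL; triangle: mouse M_958; blue: AT). *Meg3*, *Rian*, *Mir377* and *Mir380* are higher in all 4 BHL mice than in any AT mouse.

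*Dio1* and *Slc5a5*, which serve the making or activation of thyroid hormone, were lower in the lesions, as were *Slc5a8* and *Thrsp*. *Dio1* (10514912), the type 1 deiodinase that converts thyroxine to the active hormone, was at 7.8, 8.05, 10.18 and 6.77 in BHL and at 9.85, 11.35, 11.08, 10.55 and 9.96 in AT. The 3 older BHL females were below every AT mouse and M_958 was within their range. The difference was -2.41 (SE 0.38, adjusted p = 0.00131 in limma), and it remained called in each of the 26 other settings, between -2.89 and -2.01. *Slc5a8*, an apical monocarboxylate transporter, was at 7.57, 7.47, 8.98 and 6.89 in BHL and at 8.43, 10.65, 9.85, 9.26 and 8.52 in AT (-1.67, SE 0.33, adjusted p = 0.0101). *Slc5a5*, the sodium iodide symporter, was at 8.9, 8.51, 10.18 and 8.68 in BHL and at 9.37, 11.48, 10.97, 10.69 and 9.18 in AT (-1.33, SE 0.35, adjusted p = 0.0326). The AT mice themselves covered over 2 log2 units for *Slc5a5*, with M_1003 and M_948 low, and the gene was called in 10 of the 26 other settings. *Slc5a8* and *Slc5a5* were the 2 members called lower of 7 tested from the thyroid hormone synthesis list, with 0 higher. *Duox2*, which supplies hydrogen peroxide for iodination, and *Tshr*, the thyrotropin receptor, had differences of -0.73 and -0.66 and did not pass, and *Tg*, *Slc26a4* and *Duox1* were too flat to be tested (-0.07, 0.01 and 0.35). Of the 7 thyroid transcription factors 0 varied enough to be tested, with differences of -0.32 for *Pax8* to 0.43 for *Hhex*. *Thrsp*, a lipogenic gene induced by thyroid hormone, had a difference of -1.61 (SE 0.41, adjusted p = 0.0294) and was called in 14 of the 26 other settings. With the mean brown fat marker signal of each mouse as a covariate, its difference was -0.8 (adjusted p = 0.179 in limma).

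*Car4* (10379866), a carbonic anhydrase anchored to the cell surface, was at 5.29, 5.92, 7.89 and 6.11 in BHL and at 8.06, 8.82, 8.6, 8.43 and 8.25 in AT. All 4 BHL mice were below all AT mice, with M_958 just below them. The difference was -2.17 (SE 0.31, adjusted p = 0.000323 in limma), against 0 in BRAF(-) mice. *Hhatl* (10597841), a relative of the hedgehog acyltransferase, was at 5.62, 5.63, 7.96 and 5.58 in BHL and at 7.33, 9.26, 8.52, 8.06 and 7.41 in AT (-1.99, SE 0.34, adjusted p = 0.00351). *Alpl* (10517587), the tissue-nonspecific alkaline phosphatase, was at 6.52, 6.19, 7.26 and 6.32 in BHL and at 7.2, 8.51, 8.67, 8.19 and 7.85 in AT (-1.54, SE 0.28, adjusted p = 0.00494). *Car4*, *Hhatl* and *Alpl* stayed called in each of the 26 other settings. *Padi2*, a peptidylarginine deiminase, *Rtn1*, a reticulon of the endoplasmic reticulum, and *Lgi3*, a secreted leucine-rich repeat protein, had differences of -1.73, -1.38 and -1.79 (SE 0.28, 0.25 and 0.33; adjusted p = 0.00178, 0.00576 and 0.00543) and stayed called in 25 of 26. *Pygm*, a glycogen phosphorylase best known from muscle, and *Lrat*, which esterifies retinol for storage, had differences of -1.76 and -1.82 (adjusted p = 0.0113 and 0.0191). The skeletal muscle markers (6 of 6 measured, 0 called) had a mean of 5.32 to 5.62 in BHL and 5.37 to 5.43 in AT. Of the longer skeletal muscle list, 19 of 19 measured members were tested, 2 were called lower and 0 higher, with a median of 0.16. Over all named genes tested 6.24% were called lower.

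*Grp*, *Scg3* and *Ret*, which neuroendocrine cells express, were lower in the lesions. Of the C cell and neuroendocrine list 3 of 7 tested members were called lower (6.24% of all named genes) and 0 higher, and the median over 12 measured members was -1.07. *Grp* (10456353), gastrin-releasing peptide, was at 9.76, 8.86, 9.18 and 8.71 in BHL and at 11.03, 11.15, 12.4, 11.06 and 10.77 in AT, without overlap. Its difference was -2.15 (SE 0.36, adjusted p = 0.00257 in limma), and its interaction -2.5 (adjusted p = 0.0257, called in 17 of 25 other settings). *Scg3*, secretogranin III of secretory granules, was at 4.41, 5.18, 5.88 and 4.7 in BHL and at 5.1, 8.28, 8.7, 6.62 and 5.57 in AT, so that M_1003 and M_948 overlapped the lesions (-1.9, SE 0.54, adjusted p = 0.0425, called in 9 of 26 other settings). *Ret*, a receptor kinase of C cells, had a difference of -1.14 (SE 0.28, adjusted p = 0.0279). The mean of the C cell markers (4 of 5 measured, 2 called lower) was 5.61 to 6.47 in BHL and 5.97 to 7.96 in AT. In tissue of this kind fewer cells of a type and less RNA per cell cannot be told apart.

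*Ucp1* (10573152), the uncoupling protein of brown adipocytes, had the largest decrease among named genes, and it divided the lesions. It was at 4.99, 4.46, 11.56 and 4.86 in BHL and at 9.95, 9.82, 8.75, 10.55 and 9.75 in AT. The 3 older BHL females were far below every AT mouse and M_958 was above them all. The difference was -3.37 (SE 0.99, adjusted p = 0.0472 in limma), called in 8 of 26 other settings, and -5 without M_958 (adjusted p = 0.000198). Of the brown adipocyte list 1 of 6 tested members was called lower, and *Cidea* and *Cox8b* were at -1.51 and -1.78 without passing. The mean of the 4 brown fat markers was 5.35 to 9.74 in BHL, the highest in M_958, and 7.44 to 8.99 in AT. White fat markers (4 of 5 measured, 0 called) were at 7.32 to 8.06 and 7.73 to 8.83. With the brown fat score of each mouse as a covariate, 30 probe sets were called, 26 of them among the 275, and *Prg4*, *4921509C19Rik*, *Car4*, *Dio1*, *Hhatl* and *Alpl* were still called. *Thbs4* and *Fmod* were then at 2.41 and 2.1 (adjusted p = 0.0612 and 0.0653). *Ndufb8*, a subunit of respiratory complex I, was the 1 of 6 tested oxidative phosphorylation genes called lower. It was at 8.13, 8.05, 9.17 and 7.81 in BHL and 9.73, 9.53, 9.58, 9.81 and 9.5 in AT, without overlap (-1.35, SE 0.3, adjusted p = 0.0191). The list's median was -0.43, with 1 of 20 members above 0, or 0 with centred arrays. *Cd36*, a fatty acid receptor of adipocytes, macrophages and endothelium, went the other way (1.22, SE 0.32, adjusted p = 0.0326), without overlap.

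**Figure D5:**
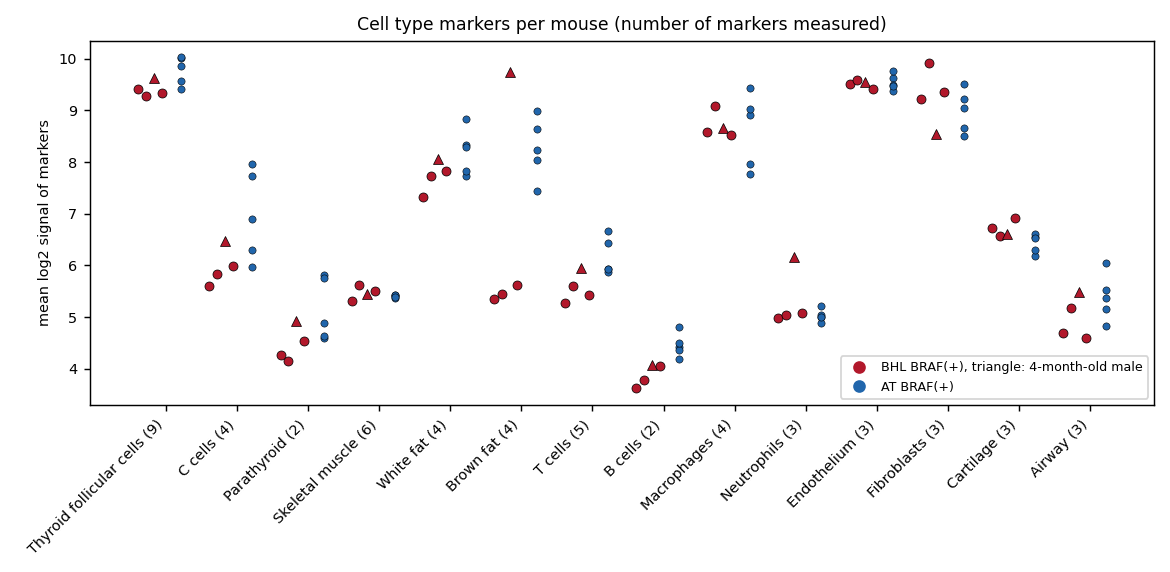
Mean log2 signal of cell type markers in each mouse (red: BHL BRAF(+); triangle: mouse M_958; blue: AT BRAF(+)), with the number of markers measured. Brown fat markers are low in 3 BHL mice and highest in M_958, and the muscle markers lie close together in all 9 mice.

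Of 8 immunoglobulin kappa variable genes tested, 5 were lower in BHL BRAF(+) than in AT BRAF(+) and 3 did not pass, where 6.24% of all named genes tested were called lower. All 13 tested probe sets of 10 immunoglobulin genes had a negative difference in BRAF(+) mice. Their median was -2.04, against 0.19 over all probe sets kept. In BRAF(-) mice all 13 differences were positive, with a median of 0.96. The difference in BRAF(-) mice rested in part on the BHL mouse M_946, without which 11 of 13 were positive, with a median of 0.54. *Igkv8-30* was at 3, 3.58, 5.14 and 2.78 in BHL and at 5.81, 4.2, 5.58, 7.02 and 7.63 in AT, with means of 5.01 and 3.45 in BHL and AT of BRAF(-) mice. The difference was -2.39 (SE 0.6, adjusted p = 0.0278 in limma) and the interaction -3.86 (adjusted p = 0.0423, called in 14 of 25 other settings). *Igkv5-43* did not overlap (3.18, 3.6, 3.44 and 3.04 against 5.83, 4.08, 4.11, 6.68 and 6.52) and had a difference of -2.1 and an interaction of -3.24 (adjusted p = 0.0174 and 0.0236, the interaction called in 16 of 25). The other 3 kappa genes called, *Igkv4-55* and *Igkv6-20* among them, had differences of -2.37 to -2.05 (adjusted p = 0.021 to 0.0395). Kappa genes resemble each other in sequence, so the probe sets may read each other's transcripts. The B and plasma cell list had 0 of 2 tested members called and a median of -0.27, with 0 of 9 members above 0. Leaving out M_942, M_943 or M_997 left 0 of the 13 called, and leaving out M_958 left 11.

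In MHC class II and antigen presentation 1 of 10 tested members was called, *Flt3*, the receptor of dendritic cell precursors (-1.06, SE 0.31, adjusted p = 0.046, called in 9 of the 26 other settings), and 1 of 11 measured members was above 0. Outside the lists, and named after their values were seen, *H2-Oa*, a chain of a class II protein that steers peptide loading (-1.05, adjusted p = 0.0405), and *Clec9a*, a receptor of dendritic cells (-1.12, adjusted p = 0.0284), were also lower, without overlap. Of 12 measured T cell genes 0 were above 0, with a median of -0.32 and 0 of 5 tested called. Of 18 macrophage genes 15 were above 0, with a median of 0.13 and 0 of 11 tested called. Of 19 proliferation genes 18 were above 0, with a median of 0.28, and 0 of 8 tested were called. The medians of these macrophage and proliferation genes were no smaller in BRAF(-) mice, at 0.2 and 0.34. In BRAF(-) mice the T cell genes had a median difference of 0.83, which rested on M_946: this BHL mouse was the highest of its group for all 12 genes, and without it the median was -0.04.

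Medians of the 10 borderline lesions and 10 papillary carcinomas of the series are given for 6 of the genes above, picked after their values were seen. *Prg4* was at 7.28 in borderline lesions and 8.35 in carcinomas, *Thbs4* at 7.74 and 9.15, *Meg3* at 9.62 and 9.84, *Dio1* at 9.69 and 8.99, *Car4* at 7.3 and 6.62 and *Grp* at 10.65 and 10.78. The 3 older BHL females were therefore below the carcinoma median for *Dio1*, *Car4* and *Grp* and above it for *Thbs4* and *Meg3*. No test was made of these differences, and the groups were not matched for age, sex or line.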

How the data were processed

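RNA from 38 mouse thyroids was hybridised to GeneChip Mouse Gene 1.0 ST arrays, 1 per mouse. The deposited values are log2 signals that the authors normalized by RMA, whose version none of the sources used here states. Per the labels, a kit for arrays of the 3' type is named for amplification, and 100 ng RNA was used. Genome build and strand were not needed for the values. Arrays have no read depth, and the number of mice limits the precision. Where nothing in the labels gives litters, mice were treated as independent.

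Gene names came from the platform annotation: 21789 probe sets had 1 symbol, 1621 several and 12146 were not listed, the last 2 kinds staying unnamed. Control probe sets are not marked there and were removed only where the flat filter took them out. The filter kept 4388 of 35556 probe sets, which means a distance of 1.5-fold or more from the probe set's median over all 38 mice in 20% of them or more. The probe set with the highest mean over all mice stood for a gene. In R 4.3.3 with limma 3.58.1, a group for each combination of *BRAF* status and lesion, plus sex, was fitted over the 18 non-malignant mice (13 residual degrees of freedom), and differences are adjusted for sex. An adjusted p under 0.05 by the method of Benjamini and Hochberg over all probe sets kept was the threshold, two-sided. *Braf* was tested by exact permutation. The fit was tested on simulated data. Promoter and microRNA sequences came from RefSeq tables, read with Python 3.11.15 and drawn with matplotlib 3.10.9 and numpy 2.4.6.

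Members, the 42 lists and markers were chosen with earlier results of these data known. Genes to name were drawn from the 15 highest and 15 lowest called, *Braf*, the study's 18 genes, thyroid hormone, deiodinase and transcription factor lists, up to 5 members of other lists and the 8 largest interactions past the threshold. Not all genes that the rule gave are named in the text. *Alpl*, *Rtn1*, *H2-Oa*, *Clec9a* and the genes between *Dlk1* and *Dio3* other than *Meg3* fall outside that rule and were chosen after their values were seen. Lists were described by counts and medians without a test. Alternatives were other filters, samples, covariates, scalings and variance models, and leaving out each mouse; the brown fat covariate and leaving out BRAF(-) mice were chosen after seeing the data.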

Additional observations from a re-analysis of the deposited data

Results flagged for a closer look

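M_958, the 4-month-old male among the BHL BRAF(+) mice, lay far from the other 3 BHL mice for 7 of the 52 genes examined. It was the lowest for *Thbs4* (5.81), *Fmod* (5.74), *Comp* (5.26), *Meg3* (9.34) and *Tgfbi* (10.64), and the highest for *Ucp1* (11.56) and *Hhatl* (7.96). M_943 was far above the other BHL mice for *Prg4* (9.03), and M_779 far above the other AT BRAF(+) mice for *Grp* (12.40). In all, 9 of 104 groups examined held such a mouse, and the cutoff marks about 1 in 20 by chance in independent groups. These genes were selected on the same mice and 7 of the 9 were M_958, so that rate is no yardstick here.

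The lesion difference was larger or smaller in BRAF(+) than in BRAF(-) mice, by limma's interaction at an adjusted p under 0.05, for 11 named genes. It was larger for *Prg4* (3.38) and *4921509C19Rik* (2.47). It was more negative for *Igkv8-30* (-3.86), *Igkv5-43* (-3.24), *Grp* (-2.50), *Dio1* (-2.41), *Hhatl* (-2.20), *Car4* (-2.17), *Alpl* (-1.83), *Padi2* (-1.79) and *Rtn1* (-1.60). With all 38 mice in 1 fit the interaction was called for 0 probe sets. Among the 25 settings with an interaction, it stayed called in 9 to 23 for these genes, and when each of the 9 BRAF(-) mice was left out, in all 9 fits for *Prg4* and *4921509C19Rik* and in 1 to 6 for the others.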

How the results depend on the processing

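Among the 26 alternatives, leaving out the tg2 mouse and leaving out M_779 are the same fit. Requiring a 1.5-fold difference as well changed none of the 275 calls. All 275 probe sets called kept their direction in each alternative, which is no independent evidence because they were selected on these mice. Their number did not hold. It was 48 (23 higher, 25 lower) in the 9 BRAF(+) mice alone, 122 (66 and 56) without the sex term, 484 (290 and 194) in an unmoderated model, 891 (511 and 380) with array weights, 103 (48 and 55) with 11-month-old females only among the BRAF(+) mice, 176 (65 higher) without the tg2 mouse, 63 (18 and 45) without both M_523 and M_779, 43 (19 and 24) with muscle and white fat scores and 30 (18 and 12) with the brown fat score, a covariate chosen after seeing the data. Calls of increases were 228 with all 38 mice and 88 in females. The interaction was called for 10 probe sets without the flat filter, 0 with all 38 mice, 15 with age added, 187 with array weights, 55 in females, 61 with 11-month-old females, 53 without the tg2 mouse, 48 without both M_523 and M_779, 11 with muscle and white fat scores and 10 with the brown fat score.

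The share of probe sets whose groups do not overlap, 6.18% higher and 2.48% lower, was 2.62% higher without the filter, 16.4% and 10.4% in females, 38.1% and 21.5% in 11-month-old females, and 10.3% and 7.2% without both M_523 and M_779, and 3.97% were lower without the tg2 mouse. By construction these shares grow as mice are left out. Of the list medians, those that moved by more than the spread among AT mice were thyroid transcription factors (0.25 in females, -0.03 with the brown fat score), brown adipocytes (-1.9 in females, -2.06 in 11-month-old females, -1.48 without both M_523 and M_779, -0.29 with the brown fat score), oxidative phosphorylation (-0.59 in females, -0.3 with muscle and white fat scores, -0.29 with the brown fat score), surfactant genes (-0.1 in 11-month-old females), adipocytes (-0.81 in those females, 0.13 with the brown fat score), fatty acid synthesis (-0.62 and 0.02), fatty acid oxidation (0.14 with the brown fat score) and the study's 18 genes (0.28 without both M_523 and M_779). The cause was not tested.

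Leaving out 1 mouse at a time gave 35 to 553 calls (16 to 299 higher, 14 to 254 lower), 11 to 120 for the interaction, 6.91% to 14.1% of probe sets higher and 2.62% to 9.59% lower without overlap, and medians of -1.94 to -0.86 for brown adipocytes, -0.58 to -0.36 for oxidative phosphorylation and 0.07 to 0.27 for thyroid transcription factors. For a set of 52 called genes, most but not all of them named in the text, 869 of 1350 values stayed called, 481 did not and 0 changed direction. *Braf* had a difference of 0.49 to 0.65 (two-sided exact permutation p = 0.0179 to 0.0286). No paired analysis was possible because mouse numbers are not shared between the groups. Leaving out each BRAF(-) mouse, chosen after seeing the data and not among the 26 alternatives, called 4.65% to 8.3% of probe sets against 6.27% with all mice, 0 probe sets in BRAF(-) mice and 12 to 49 for the interaction. The number of mice limits every comparison.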
